A study of Mus musculus with 6 samples.

Results

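The enzymes that make eicosanoids from arachidonic acid were examined in mouse neutrophils lacking the microRNA miR-223 and in wild-type neutrophils. They are represented by 8 probe sets of 7 genes among the 45101 probe sets of the array, listed by identifier. The rule that lists them uses no measured value, but the list was drawn up with earlier results of these data known. They are Pla2g4a (1448558_A_AT), Alox5 (1441962_AT), Alox5ap (1452016_AT), Lta4h (1434790_A_AT), Ptgs1 (1436448_A_AT), Ptgs2 (1417262_AT and 1417263_AT) and Alox15 (1420338_AT). The pairing of each identifier with its gene came with the list of probe sets and was not checked against an array annotation.

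The study compared miR-223 null with wild-type neutrophils, 3 arrays per genotype, each array carrying total RNA of 1 sample. Both sets of cells were grown from bone marrow progenitors in SILAC-IMDM, an isotope-labelling medium, that held G-CSF and SCF for the first 6 days and lacked SCF for a further 42 hours of maturation, and live neutrophils were isolated with magnetic beads (MACS). The labels give neither the allele behind the null genotype nor the strain, sex or age of the mice, nor whether replicates came from separate animals or cultures, so the p-values speak for the spread among these arrays alone, and that spread could be technical. The cells matured in a dish under added cytokines, which limits them as a model of blood neutrophils. The cell type given by the labels was not checked against marker genes, and the level of miR-223 was not analysed here.

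Eicosanoid synthesis begins when the cytosolic phospholipase encoded by Pla2g4a frees arachidonic acid from membrane phospholipids. In the leukotriene branch, the membrane protein encoded by Alox5ap presents the fatty acid to the lipoxygenase encoded by Alox5, and the hydrolase encoded by Lta4h turns the product into leukotriene B4, a strong neutrophil attractant that neutrophils themselves make. In the prostanoid branch, the cyclooxygenases encoded by Ptgs1 and Ptgs2 start the path to prostaglandins and thromboxane, Ptgs1 being present in many cells at rest and Ptgs2 being induced by inflammatory stimuli. MicroRNAs lower the output of mRNAs that pair with them, mainly through the seed near their 5′ end.

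The mature strands of miR-223 are shown because their seeds, bases 2 to 8 in capitals, guide which mRNAs each strand pairs with. The sequences are RefSeq's, on GRCm38.p6, plus strand, at chrX:96242884-96242905 for the 3p strand and chrX:96242842-96242864 for the 5p strand.
mmu-miR-223-3p: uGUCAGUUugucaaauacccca
mmu-miR-223-5p: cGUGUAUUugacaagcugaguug
Whether the mRNAs of the 7 genes carry matches to these seeds was not analysed here.

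Genotype differences of the eicosanoid enzymes were small or could not be resolved with these arrays. Alox5 was 129% of its wild-type level in null neutrophils, which passed the test when arrays were paired by replicate number and not when all 6 were treated as unpaired. Alox5ap and Lta4h, both with readings near the top of the scale, were within 1% of their wild-type levels. Pla2g4a was read at 112% and Ptgs1 at 88.2% of wild type, each in the same direction in all 3 pairs of arrays, and neither passed in the unpaired fit or with the pairing. For Ptgs2, the arrays of replicate 1 differed from the others of the same genotype by more than the genotypes differed from each other.

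All 8 probe sets passed the filter on dim signal, which kept 27022 probe sets. In the fit without pairing, limma with Benjamini-Hochberg adjustment over the 27022 called 0 of the 8 at 0.05, and 1 of the 8, for Alox5, had an unadjusted limma p under 0.05. Over all kept probe sets, 0.189% passed the adjusted threshold and 10.7% had an unadjusted p under 0.05. With the replicate number as a block, 1 of the 8 passed, where 10.0% of all kept probe sets did. A count of 1 in 8 is thus near the background. The genotypes overlapped in each of the 8, so 0 were separated, against 16.8% separated among all kept probe sets. In 3 of the 8 the difference had the same sign in all 3 pairs, 2 higher and 1 lower in null, against 46.6% of all kept probe sets, 21.6% higher and 25.0% lower. The median difference over the 8 was 0.0003 log2 units, against -0.011 over all kept probe sets. The median size was 0.15 log2 units over the 8 and 0.11 over all. Each array read the pooled RNA of all cells kept by the magnetic-bead isolation of live neutrophils, and the purity reached was not measured here. In such pooled RNA, a difference in the make-up of the isolated cells and a difference in RNA per cell cannot be told apart.

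The arrays of replicate 1 stood apart from the rest in both genotypes, and each result is therefore given with and without pairing. Control readings moved with replicate 1. The mean of the poly-A spikes was highest on null 1, at 8.92 log2 units, and on wild-type 1, at 8.77, and it lay between 8.16 and 8.58 elsewhere. The mean of the hybridisation spikes was also highest on null 1, at 9.99, and on wild-type 1, at 9.89. It lay between 9.69 and 9.79 elsewhere. Beta-actin read higher at its 3′ than at its 5′ probe set by 0.28 log2 units on null 1 and 0.26 on wild-type 1, and by 0.15 to 0.21 elsewhere. Gapdh went the other way, with a 3′ minus 5′ difference lowest on null 1, at -0.11 log2 units, and on wild-type 1, at -0.090, and between -0.064 and 0.067 elsewhere. The part of these readings in the results was not tested.

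**Figure D1:**
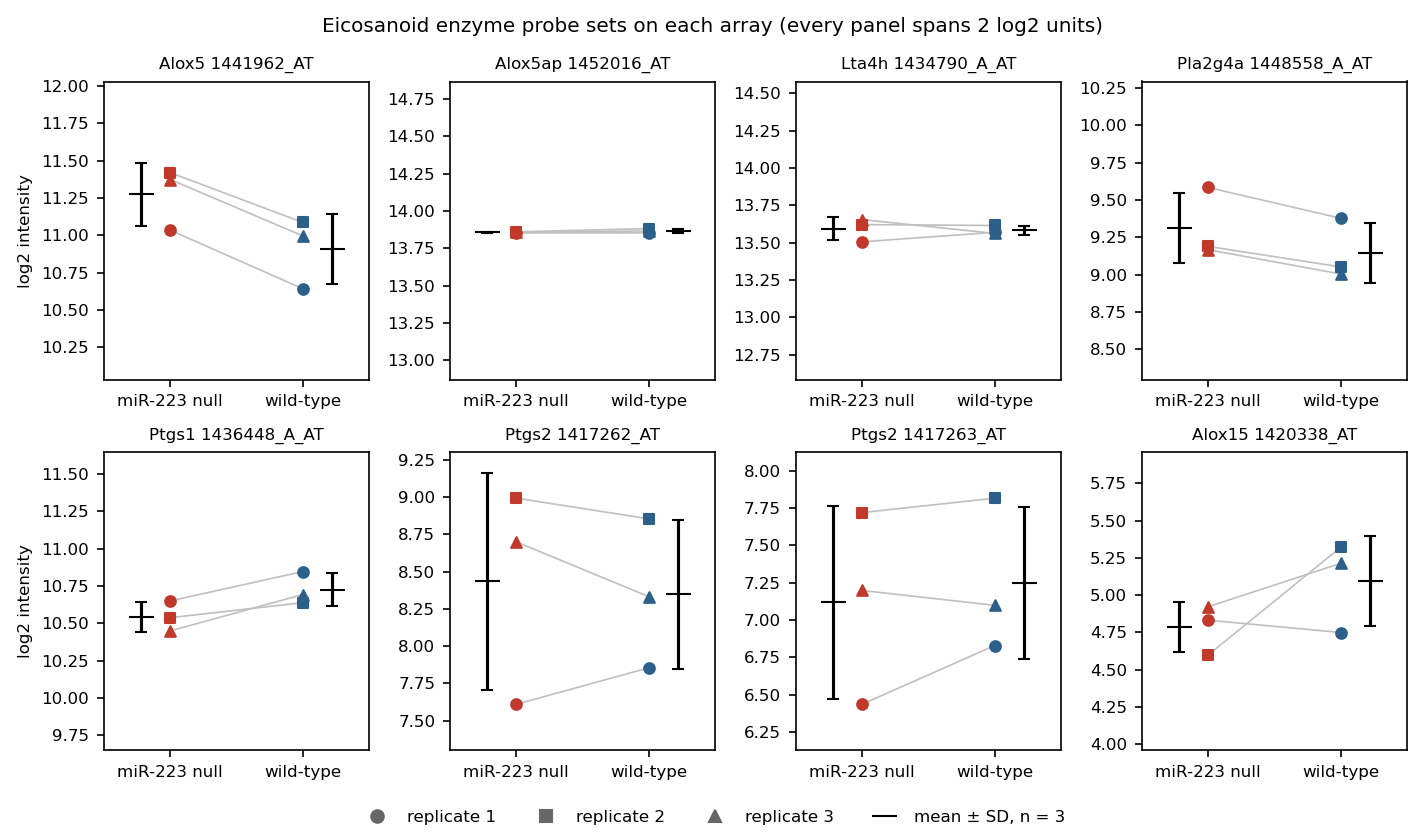
Log2 intensity (vertical axis) of each eicosanoid enzyme probe set on 3 miR-223 null (left, red) and 3 wild-type (right, blue) arrays, with grey lines joining arrays of the same replicate number and bars showing the mean ± SD. Every panel spans 2 log2 units. The Alox5 lines run parallel, with null higher by 0.33 to 0.39. The Ptgs2 points spread by 1.38 log2 units over the 6 arrays, with replicate 1 lowest in both genotypes.

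Pla2g4a, which supplies the arachidonic acid for both branches, was slightly higher in null neutrophils in every pair. Its probe set read 9.584, 9.189 and 9.166 log2 units on null arrays 1, 2 and 3, against 9.377, 9.051 and 9.004 on wild-type arrays 1, 2 and 3. The groups overlapped, because wild-type 1 lay above null 2 and null 3, and replicate 1 was the highest array of each genotype. Means were 9.31 ± 0.23 in null and 9.14 ± 0.20 in wild-type arrays (SD, n = 3 each). The difference of 0.17 log2 units did not pass without the block (SE 0.16, limma adjusted p = 0.777) or with it (SE 0.05, limma adjusted p = 0.0944). With the block, null cells held 112% of the wild-type level, with a 95% interval of 103% to 123% before any adjustment for the number of probe sets. Without null 1 the difference was 0.03 log2 units, and without wild-type 1 it was 0.29, so the unpaired value rests on which replicate 1 array is present.

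Alox5, the lipoxygenase that commits arachidonic acid to leukotrienes, was the 1 eicosanoid enzyme gene with a difference that passed in the paired fit. It read 11.03, 11.42 and 11.37 log2 units on null arrays 1, 2 and 3, against 10.64, 11.09 and 11.00 on wild-type arrays 1, 2 and 3. Null 1 lay below wild-type 2, so the groups overlapped, but within each replicate number the null array was higher. Means were 11.28 ± 0.21 in null and 10.91 ± 0.23 in wild-type arrays (SD, n = 3 each). The differences within the 3 pairs were 0.39, 0.33 and 0.38 log2 units, a mean of 0.37 ± 0.03 (SD, n = 3 pairs).

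Without the block the Alox5 difference did not pass (log2 difference 0.37, SE 0.15, limma adjusted p = 0.438, exact two-sided permutation p = 0.2). With 1 array left out, the unpaired difference was 0.24 log2 units without wild-type 1, or 118% of wild type, and 0.49 without null 1, and the other arrays gave values between these. With the block it passed (SE 0.04, limma adjusted p = 0.00354), and its p was the 188th smallest of 27022. An exact two-sided test that flips the signs of the 3 pair differences gave p = 0.25, the lowest value that 3 pairs allow. The level in null cells was 129% of wild type. With the block its 95% interval was 121% to 138% before any adjustment for the number of probe sets. The interval was 102% to 164% without the block, and 116% to 144% with the block but without the intensity trend in the variance. When replicate 1 was left out in both genotypes, the difference over the 4 remaining arrays was 0.36 log2 units. It then passed without the block (limma adjusted p = 0.0218), as did 3.97% of all kept probe sets, and with it (limma adjusted p = 0.0085), as did 7.57%. The call with the block also held without replicate 2 (limma adjusted p = 0.0267), where 606 of the 27022 kept probe sets passed. It held too without replicate 3 (limma adjusted p = 0.00434), where 2319 passed. Both fits reuse arrays of the full fit, so neither is a separate test. With every array in the blocked fit, the call was lost when the intensity trend in the variance was dropped (limma adjusted p = 0.0705). Under that change 0.707% of all kept probe sets passed, against 10.0% with the trend. The 3′ minus 5′ difference of beta-actin, 1 of the array's control readings of RNA integrity, averaged 0.22 ± 0.05 log2 units in null and 0.20 ± 0.05 in wild-type arrays (SD, n = 3 each). That of Gapdh was less even, at -0.11, -0.0038 and 0.067 on null arrays 1, 2 and 3. On wild-type arrays 1, 2 and 3 it was -0.090, -0.060 and -0.064. The part of these readings in the Alox5 result was not tested.

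**Figure D2:**
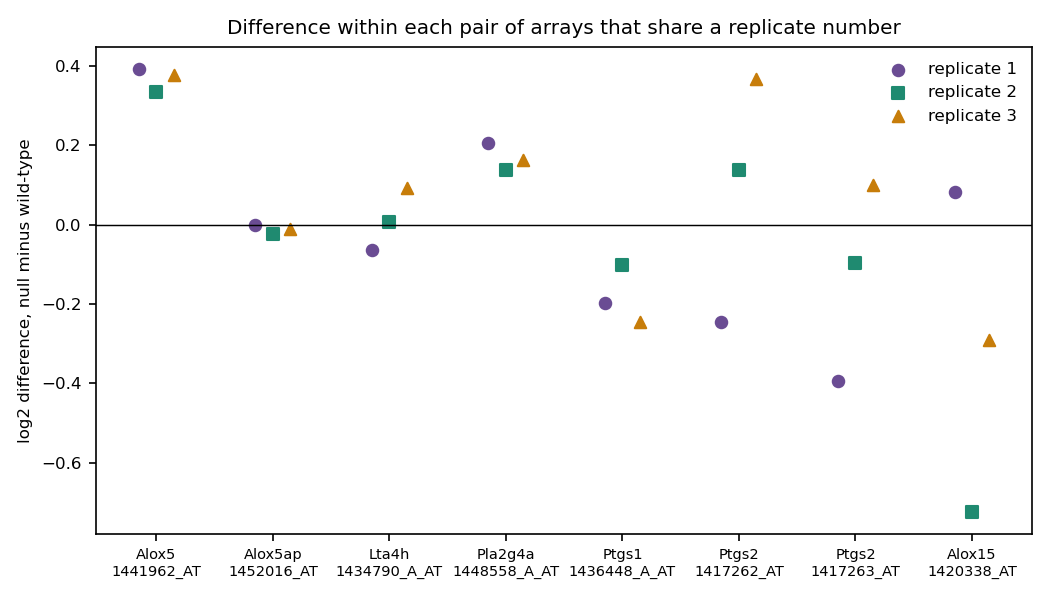
Log2 difference, null minus wild-type (vertical axis), within each of the 3 pairs of arrays that share a replicate number, for the 8 probe sets (horizontal axis). Alox5 and Pla2g4a lie above 0 and Ptgs1 below 0 in all 3 pairs, while the points of both Ptgs2 probe sets, Lta4h, Alox5ap and Alox15 fall on both sides of 0.

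Alox5ap, the partner protein that delivers arachidonic acid to the Alox5 enzyme, gave nearly the same signal on every array. It read 13.85, 13.86 and 13.86 log2 units on null arrays 1, 2 and 3, against 13.85, 13.88 and 13.87 on wild-type arrays 1, 2 and 3. The 6 values spanned 0.03 log2 units and the genotypes overlapped. The difference was -0.011 log2 units (SE 0.035, limma adjusted p = 0.953), and null cells read at 99.2% of wild type with a 95% interval of 93.8% to 105%. The probe set lay 1.12 log2 units below the highest value on the arrays, and its spread within genotypes was smaller than that of all but 0.037% of kept probe sets. Whether a reading this close to the top of the scale narrows differences was not tested.

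Lta4h, the enzyme that completes leukotriene B4, also gave high and even readings. They were 13.51, 13.62 and 13.65 log2 units on null arrays 1, 2 and 3, against 13.57, 13.62 and 13.56 on wild-type arrays 1, 2 and 3. The lowest and the highest array were both null, so the wild-type values lay inside the null range. The probe set lay 1.39 log2 units below the highest value on the arrays, and whether this narrows differences was not tested. The difference was 0.012 log2 units (SE 0.051, limma adjusted p = 0.969), with a 95% interval of 92.9% to 109% of wild type. With the block it did not pass either (SE 0.036, limma adjusted p = 0.889), with a 95% interval of 95.1% to 107%. It changed sign when null 2, null 3 or the replicate 3 pair was left out, with values between -0.029 and -0.0021. Of the 3 genes of the leukotriene branch, Alox5 alone passed with the block, and whether its difference exceeds those of Alox5ap and Lta4h was not tested.

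Ptgs1, the cyclooxygenase present in many resting cells, was slightly lower in null neutrophils in every pair. It read 10.65, 10.54 and 10.45 log2 units on null arrays 1, 2 and 3, against 10.85, 10.64 and 10.69 on wild-type arrays 1, 2 and 3. The overlap was narrow, as null 1 lay just above wild-type 2 and the other null arrays below every wild-type array. Means were 10.55 ± 0.10 in null and 10.73 ± 0.11 in wild-type arrays (SD, n = 3 each), a difference of -0.18 log2 units.

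The Ptgs1 difference did not pass without the block (SE 0.09, limma adjusted p = 0.557) and missed the threshold with it (SE 0.05, limma adjusted p = 0.0546). With the block, the 95% interval ran from 81.7% to 95.3% of wild type before adjustment for the number of probe sets. It passed in 1 further setting, the block with a filter at the 60th percentile of signal (limma adjusted p = 0.0457), in which fewer probe sets were tested. The sign was negative in all 23 other settings. Without wild-type 1 the unpaired difference was -0.12 log2 units.

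**Figure D3:**
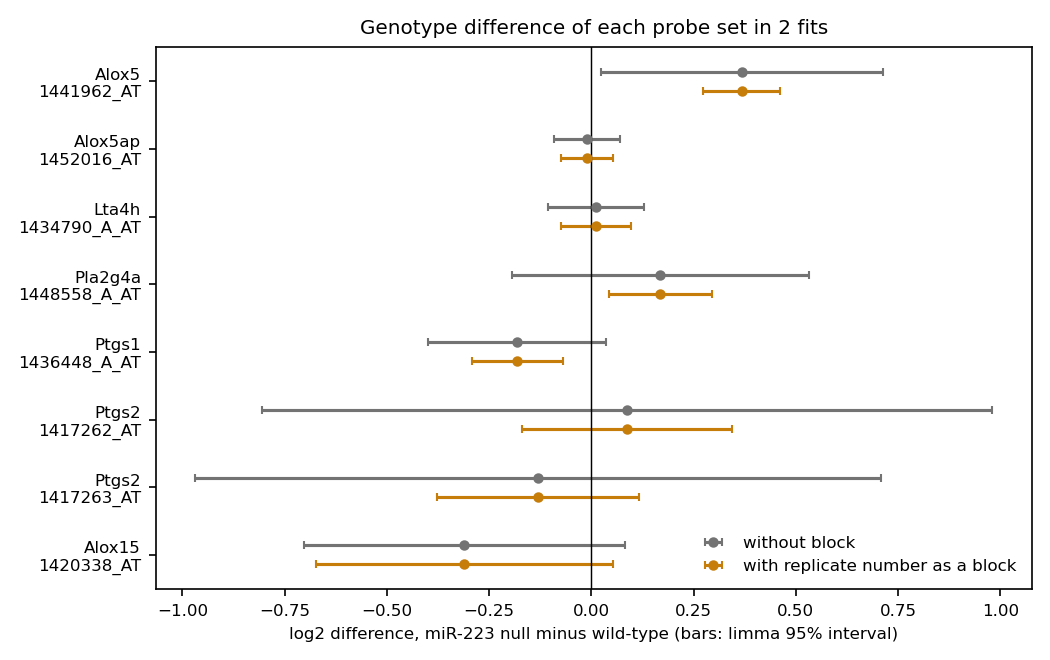
Log2 difference, miR-223 null minus wild-type (horizontal axis), for each probe set in the fit without block (grey) and with the replicate number as a block (orange), with limma's 95% intervals as bars. With the block the Alox5 interval, from 0.27 to 0.46, lies farthest from 0, while the unblocked Ptgs2 intervals run from -0.81 to 0.98 and from -0.97 to 0.71.

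Ptgs2, the inducible cyclooxygenase, varied widely between arrays of the same genotype, and its genotype difference could not be told from 0. Probe set 1417262_AT read 7.61, 8.99 and 8.70 log2 units on null arrays 1, 2 and 3, against 7.85, 8.85 and 8.33 on wild-type arrays 1, 2 and 3. Probe set 1417263_AT read 6.43, 7.72 and 7.20 on null arrays 1, 2 and 3, against 6.83, 7.82 and 7.10 on wild-type arrays 1, 2 and 3. In both probe sets null 1 was the lowest array and wild-type 1 the next, and the arrays of replicate 2 were the highest of each genotype. The SD within genotypes, pooled over both, was 0.62 and 0.58 log2 units in these probe sets, larger than in 99.3% and 99.0% of kept probe sets, whose median was 0.15.

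The 2 Ptgs2 probe sets differed in the sign of the genotype difference. Means of 1417262_AT were 8.43 ± 0.73 in null and 8.35 ± 0.50 in wild-type arrays (SD, n = 3 each), a difference of 0.09 log2 units (SE 0.38, limma adjusted p = 0.969). Means of 1417263_AT were 7.12 ± 0.65 in null and 7.25 ± 0.51 in wild-type arrays (SD, n = 3 each), a difference of -0.13 log2 units (SE 0.36, limma adjusted p = 0.943). Without the block, the 95% interval of 1417262_AT ran from 57.2% to 197% of wild type, which takes in a level almost 2-fold higher. With the block it narrowed to 88.9% to 127% for 1417262_AT and to 76.9% to 108% for 1417263_AT, and neither passed (limma adjusted p = 0.686 and 0.505).

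Replicate number held a larger share of the variation of Ptgs2 than genotype did. In 1417262_AT, null 1 differed by -1.24 log2 units from the mean of null 2 and null 3, and wild-type 1 by -0.74 from the mean of wild-type 2 and wild-type 3. In 1417263_AT these differences were -1.02 in null and -0.63 in wild-type arrays. Replicate number held 93.2% and 93.7% of the sum of squares over the 6 arrays in the 2 probe sets, and genotype 0.727% and 1.84%. Over all kept probe sets the medians were 53.3% for replicate number and 16.4% for genotype. Replicate number has 3 levels and genotype 2, so replicate number takes the larger share on average even of unstructured noise.

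The replicate term of the blocked fit was tested for all probe sets, a choice made after the values had been seen. It passed for 4 of the 8 eicosanoid probe sets, where 23.0% of all kept probe sets passed. These were both Ptgs2 probe sets (limma adjusted p = 0.00387 and 0.00404), Alox5 (limma adjusted p = 0.00381) and Pla2g4a (limma adjusted p = 0.00913). Their directions differed. Replicate 1 minus the other replicates was -0.99 and -0.83 log2 units in the Ptgs2 probe sets and -0.38 in Alox5, but 0.38 in Pla2g4a. The labels do not say what replicate 1 shared across genotypes.

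**Figure D4:**
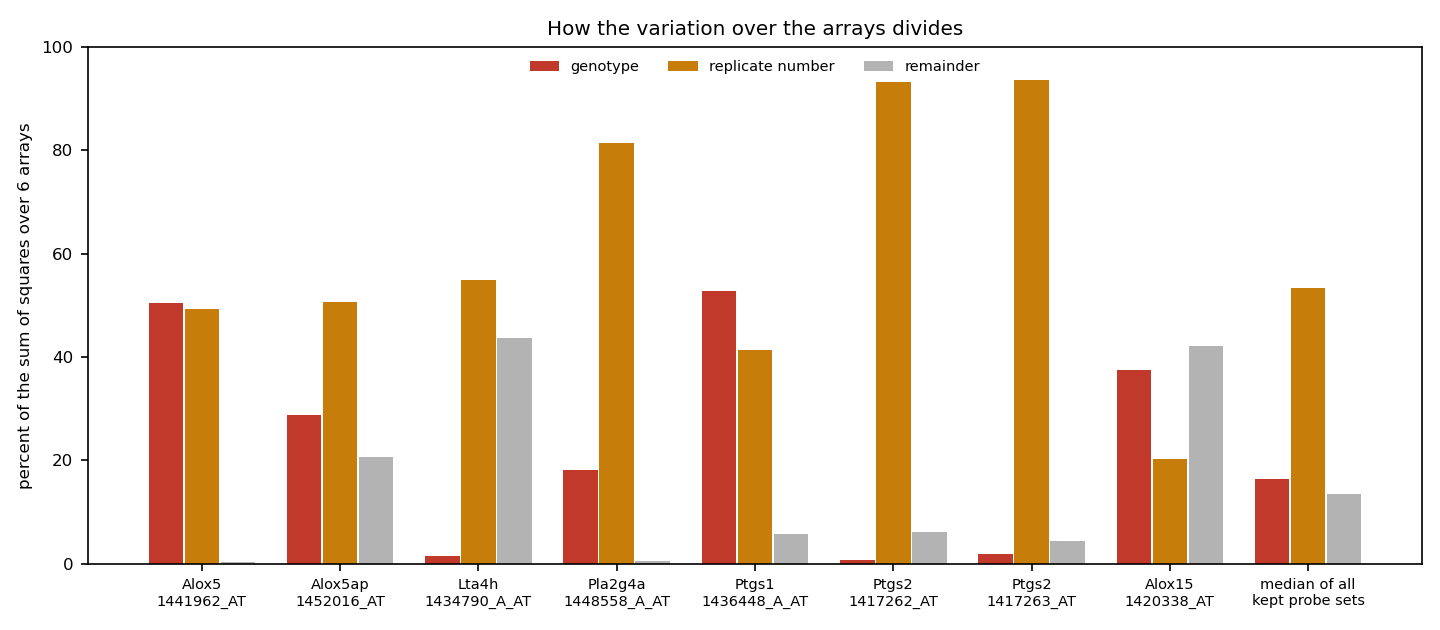
Percent of the sum of squares over the 6 arrays (vertical axis) held by genotype, by replicate number and by the remainder, for each probe set and as medians over the 27022 kept probe sets, where the 3 medians need not add up to the whole. Replicate number holds over 93% in both Ptgs2 probe sets and 81.3% in Pla2g4a. Genotype holds 50.5% in Alox5 and 52.9% in Ptgs1. Replicate number has more levels than genotype, so their shares are not on equal terms.

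Alox15, which encodes the mouse lipoxygenase best known from eosinophils and resident macrophages, gave dim readings and no difference that passed. It read 4.83, 4.60 and 4.92 log2 units on null arrays 1, 2 and 3, against 4.75, 5.32 and 5.21 on wild-type arrays 1, 2 and 3. Null 2 was the lowest array and wild-type 2 the highest, while in replicate 1 the null array was the higher one. Means were 4.78 ± 0.17 in null and 5.09 ± 0.30 in wild-type arrays (SD, n = 3 each). The difference of -0.31 log2 units did not pass without the block (SE 0.17, limma adjusted p = 0.578) or with it (SE 0.16, limma adjusted p = 0.259). Its size rests on single arrays, at -0.48 log2 units without wild-type 1 and -0.20 without wild-type 2 in the unpaired fit. With the block it was -0.51 without the replicate 1 pair (limma adjusted p = 0.0806) and -0.10 without the replicate 2 pair (limma adjusted p = 0.800). All 6 readings lay above the mean of the bacterial tryptophan controls, whose transcript the samples should lack and which averaged 2.77 to 2.86 per array. The array medians were closer, at 4.71 to 4.73, and null 2 lay below them. The lowest mean that the filter on dim signal kept was 4.08. With the block, the 95% interval ran from 62.7% to 104% of wild type.

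Pla2g4a and Ptgs2 lie close together on mouse chromosome 1, with 0 protein-coding genes and 2 other annotated genes, Gm19136 and Ptgs2os, between them in RefSeq's GRCm38.p6 annotation. The neighbours went opposite ways in replicate 1, which was highest for Pla2g4a and lowest for Ptgs2 in both genotypes. Replicate 2 lay above replicate 3 for both genes in both genotypes.

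Promoter sequence was matched by symbol in RefSeq's table for 5 of the 7 genes, Pla2g4a, Alox5, Lta4h, Ptgs1 and Ptgs2. The promoters shown are those of Ptgs2, whose probe sets had the largest replicate shares among the 8, and of Alox5, which passed with the block. A link between promoter sequence and the array readings was not tested. Each run covers 250 bases before and 30 bases after an annotated start on GRCm38.p6, from 5′ to 3′ on the gene's strand, at chr1:150099781-150100060 on the plus strand for Ptgs2 and chr6:116461149-116461428 on the minus strand for Alox5. Capitals mark matches on either strand to the searched motifs.
Ptgs2: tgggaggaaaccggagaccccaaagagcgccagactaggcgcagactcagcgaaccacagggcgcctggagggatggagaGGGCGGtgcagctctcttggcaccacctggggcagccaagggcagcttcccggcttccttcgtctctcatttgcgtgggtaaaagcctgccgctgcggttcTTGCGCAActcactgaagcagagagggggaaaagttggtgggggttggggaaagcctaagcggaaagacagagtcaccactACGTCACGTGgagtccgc
Alox5: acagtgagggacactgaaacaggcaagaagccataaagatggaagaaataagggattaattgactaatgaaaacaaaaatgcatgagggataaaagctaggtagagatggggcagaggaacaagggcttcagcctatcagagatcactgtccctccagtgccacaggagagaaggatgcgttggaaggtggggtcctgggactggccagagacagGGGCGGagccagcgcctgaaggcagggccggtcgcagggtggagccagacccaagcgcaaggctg

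Each motif was searched on both strands, and the share of the 32851 promoter windows of the same length that hold it is given with it. The Ptgs2 window held a short form of the cyclic AMP response element, ACGTCA, found in 7.26% of windows. It lay at bases 263 to 268 of the window, after the annotated start. It shares 2 bases with an E-box, CACGTG, found in 6.79% of windows, which also lies after the annotated start. The same window held a C/EBP palindrome, TTGCGCAA, found in 0.18% of windows. A GC box, GGGCGG, found in 34.7% of windows, was in both promoters shown. The other motif searched, the TATA box in the form TATAAA, found in 13.1% of windows, is not spelled in either. These matches describe the letters only.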

How the data were processed

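The authors deposited log2 intensity values for 45101 probe sets on 6 Affymetrix arrays. GCOS is the tool that the submitters' processing notes name. The methods of background correction, normalization and probe summary are not given in the sources used here. The log base was inferred from maxima near 15.0, and medians between 4.71 and 4.73 show that the arrays had been put on one scale, so a difference is relative to the rest of its array. After 64 control probe sets had been set aside, the dimmest 40% by mean over the arrays were dropped. Null minus wild-type differences were fitted in R 4.3.3 with limma 3.58.1 (lmFit and trended eBayes), two-sided, with p-values adjusted by Benjamini-Hochberg over 27022 probe sets and called below 0.05. The fit without the block was tested on simulated data with independent noise and no replicate structure. The fit with the block was not tested in this way.

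Genotypes and replicate numbers are those of the sample titles. Across kept probe sets, deviations from the genotype mean correlated at r = 0.70, 0.30 and 0.48 between the null and wild-type arrays of replicates 1, 2 and 3. Each exceeds 0.1, so the numbers were treated as pairs and blocked values stand beside unpaired ones. The pairing comes from the data, not the labels. Null 3 also correlated with wild-type 2 (r = 0.41) and null 2 with wild-type 3 (r = 0.21), both above 0.1. This rule therefore cannot show that replicates 2 and 3 are separate pairs, and the blocked values depend on the pairing. An exact permutation test of 3 against 3 arrays cannot go below p = 0.1. The number of arrays limits the precision.

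The genes and lists were chosen with earlier results of these data known. The rule for named genes took the 8 probe sets, further probe sets of the same genes, and genes of pathway and cell type marker lists. No table here pairs the array's identifiers with genes, so the lists were not run, and the 8 probe sets alone are named.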

Additional observations from a re-analysis of the deposited data

How the results depend on the processing

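Without the block, calls over all probe sets numbered 51 as reported and 38 to 60 with no or a 60th percentile filter, after quantile normalization or median centring, and without the intensity trend. At an adjusted p under 0.01 they numbered 2. They numbered 2703 with the replicate block, which with quantile normalization gave 2562, with median centring 2546, without the filter 2455, with the 60th percentile filter 3052, at an adjusted p under 0.01 625 and without the intensity trend 191. Leaving out 1 array gave 0 to 58 calls, with 0 without null 2 or wild-type 2 (limma still gave 2064 and 1753 at an unadjusted p under 0.05), and leaving out 1 pair with the block gave 606 (without replicate 2), 2045 (without replicate 1) and 2319 (without replicate 3). Leaving out both replicate 1 arrays gave 1072 without a block. The causes were not tested.

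Calls among the 8 eicosanoid probe sets numbered 0 without the block in all settings run, except 1 without both replicate 1 arrays. With the block they numbered 1, for Alox5, except 2 with the 60th percentile filter, where Ptgs1 also passed, and 0 without the intensity trend. The block changed no other call. Alox5, Alox5ap, Pla2g4a, Ptgs1 and Alox15 kept their sign in every setting that gave a value, and the 60th percentile filter gave none for Alox15. The other differences, none of which passed, changed sign. With 1 array left out, Lta4h gave -0.019 to 0.056 log2 units (negative without null 2 or null 3), 1417262_AT -0.19 to 0.50 (negative without null 2, null 3 or wild-type 1) and 1417263_AT -0.43 to 0.21 (positive without null 1 or wild-type 2). With the block and without the replicate 3 pair, Lta4h gave -0.029 and 1417262_AT -0.053. Without the replicate 1 pair, 1417263_AT gave 0.0013 with and without the block. Fits that combine the block with another choice (other than leaving out a pair), and the fit without both replicate 1 arrays and without a block were chosen after seeing the data. Counts for the pathway lists were not run, because their probe sets could not be named. Whether signal over background limits these results was not tested.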
